A study of Mus musculus with 6 samples.

Results

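The clustered histone genes of the mouse were followed in kidney messenger RNA after D-serine treatment. They were taken as every gene whose symbol starts with Hist1h, Hist2h, Hist3h or Hist4h, which gave 68 of the 24346 genes in the tables. Of the 68, 54 belong to the Hist1 cluster, 10 to Hist2, 3 to Hist3 and 1 to Hist4. They hold 6 genes of linker histone H1, 18 of H2A, 19 of H2B, 12 of H3 and 13 of H4. The rule reads the gene symbol and no measured value, though the family was picked with earlier results of these data known.

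Kidney RNA came from 3 samples of D-serine mice and 3 samples of vehicle mice. All 6 came from mice that had lost 1 kidney by unilateral nephrectomy and had eaten a serine-free diet. The D-serine mice drank water with 0.1% D-serine for 1 week before the operation, the vehicle mice drank water without it, and both groups were killed 2 days after surgery. The sources used here state no strain, sex or age, nor whether the 3 samples of a group are 3 mice. The p-values therefore describe the spread between samples, which may be technical. Values are FPKM, which scales fragment numbers by gene model length and library size. The D-serine libraries had relative depths of 0.893, 0.836 and 0.882 and the vehicle libraries of 1, 0.954 and 0.902, and the estimated mapped fragments were 7.4 M to 8.85 M per library. Kidney genes were abundant in each library, with the proximal tubule transporter Slc34a1 between 2026 and 2590 FPKM, and the 4 markers of male germ cells were listed at 0 in all 6.

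Most clustered histone genes are replication-dependent. Their RNA is made in S phase to package new DNA, and it ends in a conserved stem-loop instead of a poly(A) tail. The stem-loop binding protein SLBP binds that structure and guides cleavage, translation and decay. A few of these genes can also give polyadenylated RNA, and in differentiated cells such RNA is known for Hist1h1c, Hist1h2bc, Hist2h2be and Hist3h2a. The libraries were made with a stranded mRNA kit that captures poly(A) tails, which favours tailed RNA over RNA that ends at the stem-loop. The values do not show which form was counted.

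Of the 68 genes, 6 reached a mean of 1 FPKM over the 6 libraries. They were Hist1h2bc and Hist2h2be, which encode the core histone H2B, Hist1h1c, which encodes the linker histone H1.2, Hist3h2a, which encodes H2A, and Hist1h4h and Hist1h4i, which encode H4. A sequence search showed how their annotated ends differ. The histone stem-loop was searched in the sense strand as an arm of 6 bases that starts with GG, a loop of 4 bases that starts with TT and the reverse complement of the arm. It was found in 4 of the 6 annotated transcripts of GENCODE release M21 on mm10. The matches are shown because they mark where a replication-dependent RNA would end, with the arms in capitals.
Hist1h1c, chr13:23739507-23739532, plus strand: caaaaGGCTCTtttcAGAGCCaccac
Hist3h2a, chr11:58955167-58955192, plus strand: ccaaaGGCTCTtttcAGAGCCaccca
Hist1h4h, chr13:23531453-23531478, plus strand: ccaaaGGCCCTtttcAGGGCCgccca
Hist1h4i, chr13:22040961-22040986, minus strand: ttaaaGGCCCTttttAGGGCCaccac
The annotated transcript went on past the stem-loop by 840 bases for Hist1h1c, by 1643 for Hist3h2a, by 46 for Hist1h4h and by 330 for Hist1h4i. The transcripts of Hist1h2bc and Hist2h2be held no match. In Hist1h2bc the coding sequence ends at base 411 and the first exon at base 423, and the intron past it was not searched.

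Across the family, 44 of 68 genes (64.7%) held a stem-loop in an annotated transcript, against 0.648% of the 23310 genes of the tables that matched the annotation by symbol. The arms set H4 apart from the other classes, which shared 1 arm, as the 3 commonest forms show.
H1, H2A, H2B and H3, 26 genes: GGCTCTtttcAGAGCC
H4, 7 genes: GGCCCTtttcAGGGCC
H1, H2B and H3, 6 genes: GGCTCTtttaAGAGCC
A model that ends at its stop codon cannot hold the motif, so a gene without a match is not thereby shown to lack one.

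Polyadenylation signals were searched as AATAAA and ATTAAA in the sense strand of the last 50 bases of each annotated transcript. Of the 6 genes above 1 FPKM, 5 held one there, against 12 of the 62 members under 1 FPKM (19.4%) and 88.8% of the 11309 tested genes with an annotated match. For AATAAA alone the counts were 3 of 6 and 12 of 62, against 76.7% of tested genes. A model that ends with its coding sequence, such as that of Hist1h2ak (390 of 393 bases), cannot hold the signal of a tailed form. The counts therefore depend on where the annotated models end. The signals are shown because they mark where the tailed form would end, with the hexamer in capitals.
Hist1h1c, chr13:23740330-23740359, plus strand: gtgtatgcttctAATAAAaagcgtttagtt
Hist3h2a, chr11:58956785-58956814, plus strand: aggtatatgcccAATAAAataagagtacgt
Hist2h2be, chr3:96223705-96223734, plus strand: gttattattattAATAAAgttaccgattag
Hist1h4h, chr13:23531476-23531505, plus strand: ccacattttcttATTAAAagagcgaacatg
Hist1h4i, chr13:22040639-22040668, minus strand: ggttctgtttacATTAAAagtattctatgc
Hist1h2bc, chr13:23692450-23692479, plus strand: tgatgtatatatAATAAAtgtcatgtaaag
The signal of Hist1h2bc lay 441 bases before the end of its GENCODE transcript and 13 bases before the end of its RefSeq gene (GRCm38.p6). Hist1h2bc was also the 1 gene of the 6 whose annotated transcript had 2 exons, with the coding sequence in the first exon and the signal in the second.

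**Figure D1:**
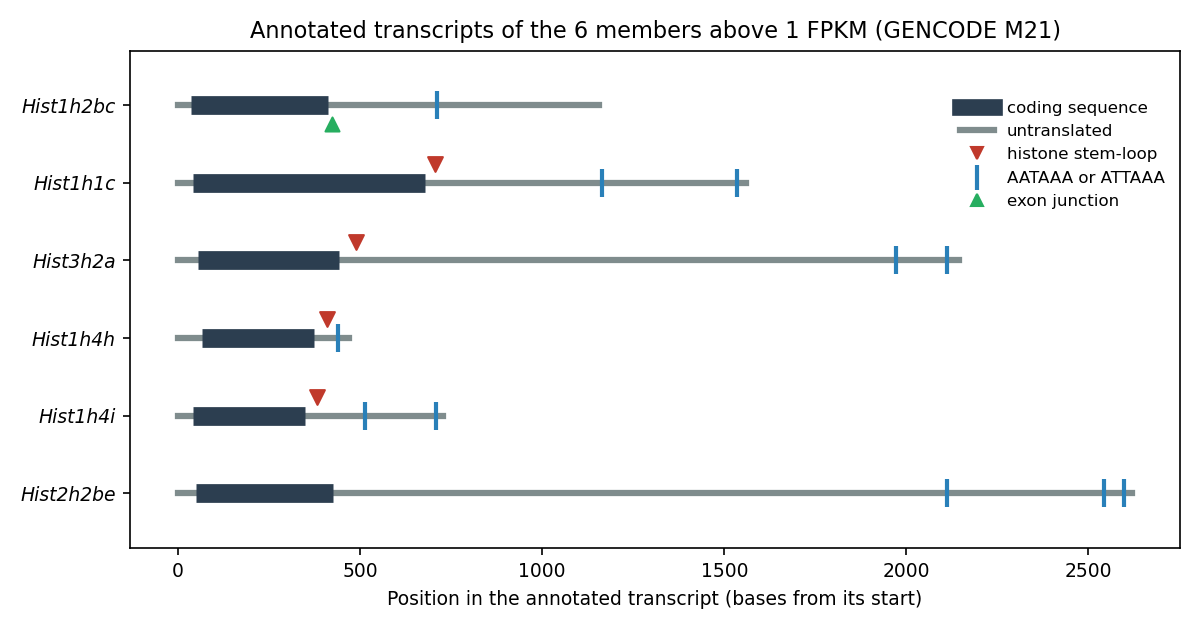
Annotated GENCODE M21 transcripts of the 6 clustered histone genes above 1 FPKM, drawn to scale in bases from the transcript start, with the coding sequence as a thick dark bar, the untranslated part as a thin grey line, the stem-loop as a red triangle, AATAAA or ATTAAA as blue ticks and the exon junction as a green triangle. The stem-loop sits just past the coding sequence in 4 genes, and 5 genes carry a signal in the last 50 bases.

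The values were clear enough in steps to show how many fragments stood behind them. After scaling by relative depth, the 6 values of a gene came out as whole multiples of 1 step within 0.02 of a whole number for 5 of the 6 genes, the exception being Hist1h2bc. With the estimated totals, 1 step gave an effective length of 552 bases for Hist1h1c, 320 for Hist3h2a, 242 for Hist1h4h and 208 for Hist1h4i. The RefSeq genes of these 4 span 725, 508, 435 and 403 bases and end 4 to 6 bases past the stem-loop. Over the 31 members with a step and a RefSeq match, the RefSeq span exceeded the effective length by a median of 190 bases (quartiles 188 and 193), and the 4 genes sat at 173 to 195. For Hist2h2be the effective length was 2572 bases and the RefSeq span 2667. Which annotation the authors used is not stated in the sources at hand. Fragments that lie wholly beyond the end of a model are not counted in its FPKM.

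Between D-serine and vehicle kidneys the 6 genes did not share a direction: Hist1h1c, Hist3h2a and Hist1h4i were lower with D-serine, at 0.59, 0.572 and 0.422 of the vehicle mean, Hist2h2be was 1.48 times as high, and Hist1h2bc and Hist1h4h overlapped between groups. None of these differences passed the test over all genes. In limma at an adjusted p of 0.05, 0 of the 6 passed, where 0.0767% of all 11737 tested genes passed (0.00852% higher and 0.0682% lower). At an unadjusted p under 0.05 there were 4, 1 higher and 3 lower, where 27.7% of all tested genes did the same (13.1% higher and 14.6% lower). The same 4 genes had groups that did not overlap, against 35.8% of all tested genes (16.5% higher and 19.4% lower). The median log2 difference was -0.35 over the 6 genes and -0.01 over all tested genes. The median over tested members stayed below 0 whichever library was left out. Where 6 members were tested it ran from -0.402 to -0.217, the latter when D-serine replicate 2 was dropped. When vehicle replicate 1 was dropped, 7 members passed the minimum, Hist1h2bc became the middle value and the median was -0.035. That value is therefore not for the same set of genes. With no minimum it was 0.010 over the 35 members above 0, against 0.011 over all genes above 0. The 6 differences ran from -0.98 to 0.45, 3 above 0 and 3 below. Both H2B genes were above 0 and the H1 and H2A genes below, and the H4 genes lay on both sides. Less RNA per cell and fewer cells of a type cannot be told apart in whole-kidney RNA.

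Hist1h2bc (chr13:23684199-23692908, plus strand) held most of the family's FPKM. It stood at 287, 306 and 322 FPKM in the D-serine libraries and at 262, 310 and 315 FPKM in the vehicle libraries. The groups overlapped, and the lowest value was in vehicle replicate 1. Its share of the family's summed FPKM was 79.5, 85.9 and 83.2% in the D-serine libraries, against 77.3, 77.6 and 77.1% in the vehicle libraries. The log2 difference of FPKM + 1 came to 0.05 ± 0.11 (SE, limma adjusted p = 0.79, n = 3 each). It was -0.035 without vehicle replicate 1 and between 0.009 and 0.096 without any other library.

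Hist1h1c (chr13:23738808-23740367, plus strand, 1 exon), the linker histone gene, stood at 25.2, 15.7 and 21.8 FPKM in the D-serine libraries and at 31.1, 39.3 and 35.9 FPKM in the vehicle libraries. All D-serine values lay below all vehicle values, with D-serine replicate 2 the lowest. The steps correspond to 110, 64 and 94 fragments with D-serine and to 152, 183 and 158 with vehicle. The mean was 20.9 ± 4.85 FPKM with D-serine and 35.4 ± 4.09 FPKM with vehicle (SD, n = 3 each), and the log2 difference of -0.75 ± 0.18 (SE) did not pass over all genes (limma adjusted p = 0.076).

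Hist3h2a (chr11:58954685-58956830, plus strand, 1 exon) was at 16.6, 6.75 and 14.4 FPKM in the D-serine libraries and at 22.9, 20.7 and 22.3 FPKM in the vehicle libraries. The groups did not overlap, and D-serine replicate 2 stood well below the other two. The fragments were 42, 16 and 36 with D-serine and 65, 56 and 57 with vehicle. The log2 difference was -0.84 ± 0.28 (SE, limma adjusted p = 0.12, n = 3 each), and without D-serine replicate 2 it was -0.48. Trim17, a gene of the tripartite motif family, starts at the same base and runs over Hist3h2a on the same strand. Reads of Hist3h2a and Trim17 may not be separable. Trim17 had little signal, with 0.403, 0.172 and 0.326 FPKM with D-serine and 0.0719, 0 and 0.159 FPKM with vehicle.

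Hist1h4i (chr13:22040636-22041362, minus strand, 1 exon), 1 of the H4 genes, was at 3.04, 1.95 and 2.46 FPKM in the D-serine libraries and at 5.43, 7.40 and 4.82 FPKM in the vehicle libraries. The groups did not overlap. The difference rested on 5, 3 and 4 fragments with D-serine and 10, 13 and 8 with vehicle, the thinnest data of the 6 genes. The mean was 2.48 ± 0.547 FPKM with D-serine and 5.88 ± 1.35 FPKM with vehicle (SD, n = 3 each), and on the log2 scale it differed by -0.98 ± 0.18 (SE, limma adjusted p = 0.059). It passed in 4 of 15 alternative settings, with adjusted p from 0.037 to 0.21 over the 15.

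Hist1h4h (chr13:23531050-23531519, plus strand, 1 exon), the more abundant H4 gene, was at 14.6, 16.2 and 15.9 FPKM in the D-serine libraries and at 10.3, 11.7 and 19.7 FPKM in the vehicle libraries. The D-serine values lay close together and inside the vehicle range. The fragments were 28, 29 and 30 with D-serine and 22, 24 and 38 with vehicle. The log2 difference was 0.20 ± 0.22 (SE, limma adjusted p = 0.56, n = 3 each). It was 0.47 without vehicle replicate 3, 0.03 without vehicle replicate 1 and 0.12 without vehicle replicate 2. Of the 50-base stretches of its transcript, 45.8% also occur in other members, and for Hist1h4i the share is 28.9%, so reads of both may be split between H4 copies. These shares are over the GENCODE transcripts, and the models behind the FPKM were shorter for Hist1h4i.

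Hist2h2be (chr3:96221119-96223738, plus strand, 1 exon), an H2B gene with a long tailed transcript, was at 5.61, 4.94 and 4.13 FPKM in the D-serine libraries and at 3.12, 3.41 and 3.36 FPKM in the vehicle libraries. All D-serine values lay above all vehicle values. The fragments were 114, 94 and 83 with D-serine and 71, 74 and 69 with vehicle. None of the 50-base stretches of its transcript occurs in another annotated gene. The log2 difference was 0.45 ± 0.12 (SE, limma adjusted p = 0.091, n = 3 each).

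**Figure D2:**
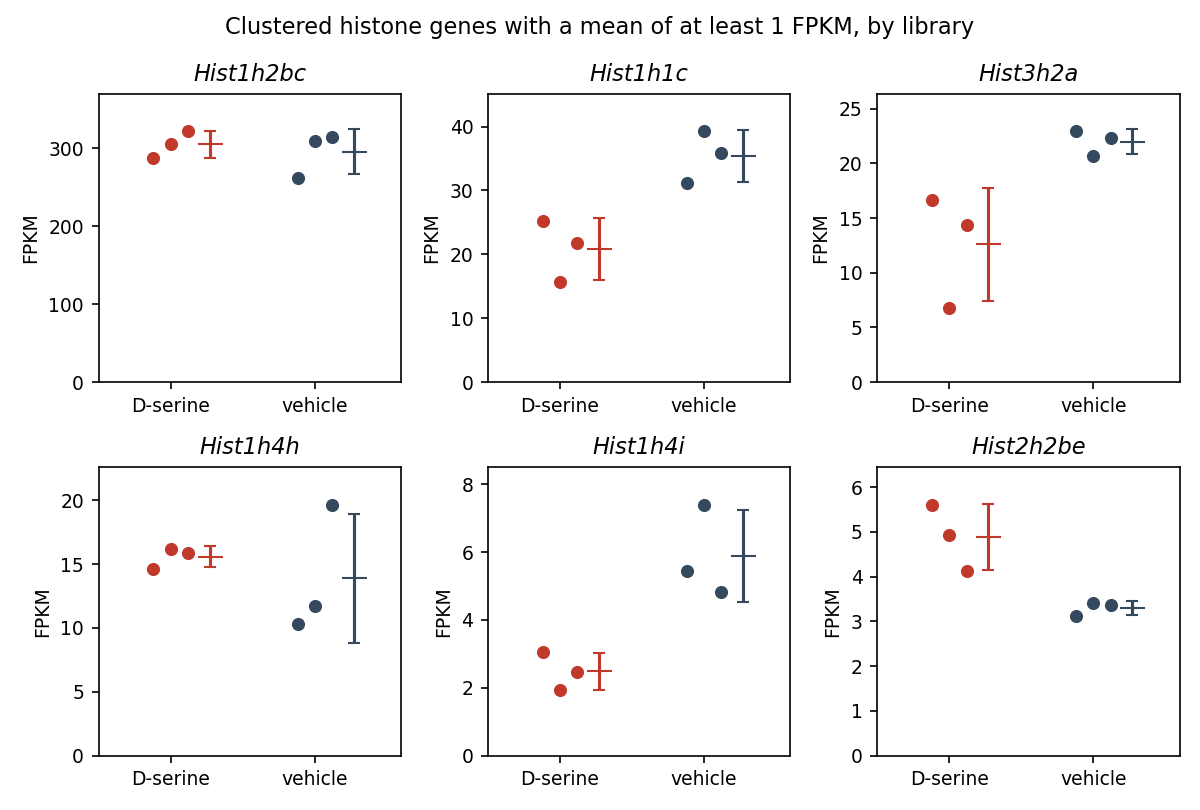
FPKM of the 6 clustered histone genes above a mean of 1 FPKM, with 1 point per library, D-serine in red and vehicle in dark blue, and the bar beside the points giving the mean and SD of 3 libraries. The groups lie apart for Hist1h1c, Hist3h2a, Hist1h4i and Hist2h2be and overlap for Hist1h2bc and Hist1h4h.

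The summed FPKM of the family was 361, 357 and 387 in the D-serine libraries and 340, 399.6 and 408 in the vehicle libraries, with overlapping groups. Without Hist1h2bc the sums were 73.9, 50.2 and 65.2 with D-serine and 77.2, 89.5 and 93.4 with vehicle, which did not overlap. That sum holds Hist1h1c and Hist3h2a, whose groups did not overlap either, so it is no separate result. Groups did not overlap for 35.8% of all tested genes. By class, H1 summed to 25.7, 15.7 and 21.8 FPKM with D-serine and 31.5, 39.7 and 36.7 FPKM with vehicle. H2A summed to 19.6, 7.52 and 16.4 FPKM with D-serine and 22.9, 22.5 and 23.6 FPKM with vehicle. H2B summed to 295.3, 312.9 and 329.5 FPKM with D-serine and 268.3, 316.5 and 322.4 FPKM with vehicle, with overlapping groups. H3 summed to 0.872, 0 and 0 FPKM with D-serine and 0.389, 0 and 0.432 FPKM with vehicle. H4 summed to 19.9, 20.4 and 19.8 FPKM with D-serine and 16.4, 20.9 and 25.2 FPKM with vehicle. Hist1h1c and Hist3h2a were the largest terms of the H1 and H2A sums in each library.

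The other 62 members were at or near the floor in both groups. Of these, 33 were listed at 0 in all 6 libraries, and 29 had a value above 0 in at least 1 library. The H3 class was the emptiest: 11 of its 12 genes were listed at 0 throughout, and Hist1h3c, the other, reached at most 0.872 FPKM. The 3 testis histone genes Hist1h1t, Hist1h2aa and Hist1h2ba were also listed at 0. The table can list a gene at 0 where the estimate failed. A count of 3 fragments, the limit that a count of 0 allows, would stand for 1.16 FPKM at the median step of the low members in vehicle replicate 1.

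Where low members had values, these were mostly single fragments. For 26 of the 29 the values were whole multiples of a step, and 38 of their 52 values above 0 stood at 1 step, 11 at 2 steps, and the highest at 4 steps. These are the smallest whole numbers that give the values: for the H1 genes Hist1h1e and Hist1h1d the RefSeq span exceeded the effective length by 476 and 473 bases, so 1 step may be more than 1 fragment there. Hist1h1e stood at 0 in each D-serine library and at 0.369, 0.387 and 0.409 FPKM, 1 step each, in the vehicle libraries. Hist1h4c, the highest of the low members, was at 0.709, 1.51 and 1.44 FPKM with D-serine and at 0, 1.33 and 0.702 FPKM with vehicle. The 62 low members together summed to 8.78, 4.68 and 6.51 FPKM with D-serine and to 4.27, 6.99 and 7.40 FPKM with vehicle. The groups overlapped, and 18 members had the higher mean with D-serine and 11 with vehicle. Of the 29 members with a value, 11 had it in only 1 library. The 26 with steps held 35 steps in the D-serine libraries and 35 in the vehicle libraries. Over all 17438 genes above 0, 9340 had the higher mean log2 value with D-serine and 8098 with vehicle.

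Many low members have near-identical copies. Among the 33 members at 0, a median of 71.5% of the 50-base stretches of the longest transcript also occurred in other genes, against 40.1% in the 29 low members with a value and 29.5% in the 6 genes above 1 FPKM. More than 50% was shared in 23 of the 33, in 9 of the 29 and in 0 of the 6. The longest transcripts also differed in length, with medians of 482, 586 and 1358 bases in the same order, and the part of sharing or length in the low values was not tested. Hist2h2aa2, an H2A gene, shared 100% with other genes, and its values ran from 0 to 1.22 FPKM with no order by group.

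**Figure D3:**
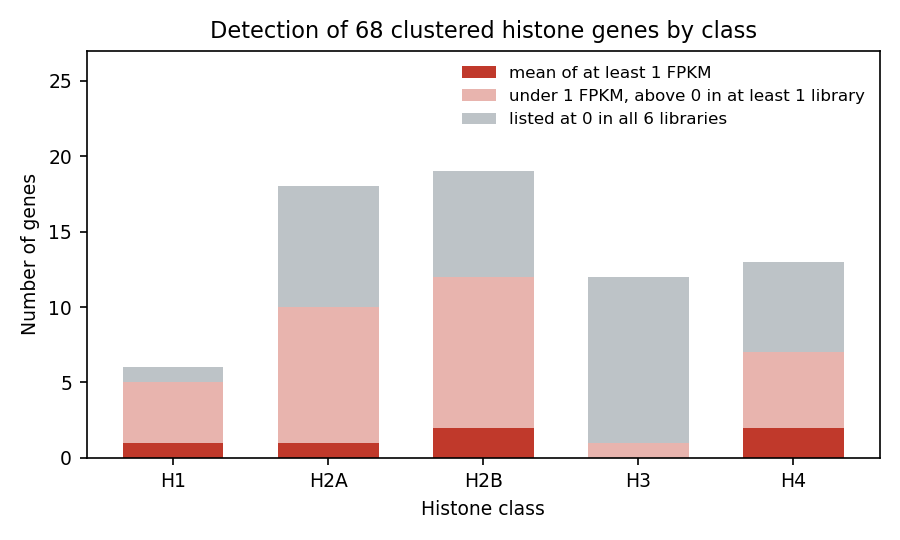
Number of clustered histone genes in each histone class, split into genes that reach a mean of 1 FPKM over 6 libraries, genes under 1 FPKM with a value above 0 in at least 1 library, and genes listed at 0 in all 6. H3 has no gene above 1 FPKM and 11 of 12 at 0, while H2B has 2 above 1 FPKM among 19.

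RNAs that carry no poly(A) tail were summed beside the histone genes. FPKM divides by gene model length, so 1 fragment on a short RNA can weigh heavily in such a sum. The sums are therefore no measure of how strictly tails were selected. The list of small nucleolar, Cajal body and other such RNAs held 126 genes of the tables, of which 88 were listed at 0 in all 6 libraries. Their summed FPKM was 3249, 1454 and 1412 in the D-serine libraries and 2162, 2458 and 1528 in the vehicle libraries, with overlapping groups. The 36 tested of them had a median log2 difference of 0.32, 20 higher and 16 lower, and 1 passed limma: Snora74a, a small nucleolar RNA, at 2.90 ± 0.26 (adjusted p = 0.015). Snora33 and Snora7a had the next smallest p, with overlapping groups. D-serine replicate 1, the highest, also had the largest sum of low histone genes, but the other libraries did not keep the same order. Vehicle replicate 1, at 2162, had the smallest sum of low histone genes, 4.27 FPKM. Vehicle replicate 3, at 1528, had 7.40 FPKM. The part of RNA without a tail in the histone values was not tested.

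Replacement histones, which are made outside S phase too and whose RNA mostly ends in a poly(A) tail, all reached a mean of 1 FPKM. Of these 11 genes, 10 had the higher value with D-serine and 1 the lower, the median log2 difference being 0.23, and 0 passed limma. At an unadjusted p under 0.05, 5 were higher, against 13.1% of all tested genes. Their summed FPKM was 1155, 838 and 902 with D-serine and 725, 793 and 799 with vehicle. H2afx, the H2A variant that is phosphorylated at DNA breaks, was at 37.1, 19.03 and 16.3 FPKM with D-serine and at 10.4, 10.99 and 9.79 FPKM with vehicle (log2 difference 1.05 ± 0.27, limma adjusted p = 0.084). H2afj, another H2A variant, was at 114, 131 and 108 FPKM with D-serine and at 78.2, 89.5 and 95.5 FPKM with vehicle (log2 difference 0.42 ± 0.12, adjusted p = 0.095 in limma). Cenpa, the H3 variant of the centromere, had the largest difference of this list, at 2.42 ± 0.36 (limma adjusted p = 0.057). H3f3a, which encodes the replacement histone H3.3, was at 263, 213 and 256 FPKM with D-serine and at 230, 246 and 259 FPKM with vehicle. It is named here for its role after its values were seen, and its groups overlapped.

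The genes that transcribe, process and degrade histone RNA showed small differences. Of 17 tested, 11 were higher and 6 lower, the median difference being 0.06 (log2), and 0 passed limma. At an unadjusted p under 0.05, 2 were higher and 2 lower, against 13.1% and 14.6% of all tested genes. The median was -0.03 without D-serine replicate 1 and 0.00 without D-serine replicate 2. Slbp, the stem-loop binding protein, was at 13.5, 13.4 and 11.2 FPKM with D-serine and at 12.7, 13.1 and 11.8 FPKM with vehicle (log2 difference 0.01 ± 0.11, limma adjusted p = 0.95). It is named for its role after its values were seen. The 3 with the smallest p were Srrt, which links the RNA cap to 3′ end processing, with a log2 difference of 0.36 ± 0.11, Cstf2, a cleavage stimulation factor subunit, at -0.32 ± 0.10, and Zcchc6, which adds uridines to RNA 3′ ends, at -0.26 ± 0.09 (limma adjusted p from 0.11 to 0.12).

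Histone chaperones, which carry new histones to DNA, were split. Of 20 tested, 11 were higher and 9 lower, with a median of 0.06 that was -0.09 without D-serine replicate 1 and -0.05 with a minimum of 5 FPKM. In limma 0 passed. At an unadjusted p under 0.05, 4 were higher and 2 lower, against 13.1% and 14.6% of all tested genes. The list held 22 genes, and Hjurp and Tonsl fell under the minimum and were not tested. Both lay higher with D-serine without overlap, with means of 1.307 against 0.6395 FPKM for Hjurp and 1.151 against 0.5842 FPKM for Tonsl. Asf1b, the H3-H4 chaperone of dividing cells, was at 2.73, 1.18 and 2.07 FPKM with D-serine and at 0.533, 0.558 and 0.844 FPKM with vehicle (log2 difference 0.84 ± 0.22, limma adjusted p = 0.085). Chaf1b, a subunit of chromatin assembly factor 1, had a log2 difference of 0.91 ± 0.28 (0.60 without D-serine replicate 1), and Nap1l1, an H2A-H2B chaperone, had -0.46 ± 0.18 (limma adjusted p = 0.11 and 0.15).

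Genes of S phase and mitosis give the setting of the histone values. Of 17 tested S phase genes, 16 were higher with D-serine, at a median of 0.40 (log2). Of 9 tested mitosis genes, 9 were higher, at a median of 2.07. With 1 library left out, both medians were lowest when that library was D-serine replicate 1, at 0.27 for S phase and 1.55 for mitosis. The S phase median was highest, at 0.63, when D-serine replicate 2 was dropped. For mitosis the highest was 2.41, when replicate 3 of that group was dropped. In limma 0 of either list passed, with 9 of each higher at an unadjusted p under 0.05, against 13.1% of all tested genes. The 6 clustered histone genes lay on both sides of 0, and the difference between the lists was not tested. Rrm2 and Rrm1, which make deoxynucleotides, and the flap endonuclease Fen1 had the smallest p of the S phase list. Ube2c, Birc5 and Cdk1 had the smallest of the mitosis list. Cdk1, the kinase that starts mitosis, was at 18.02, 7.16 and 5.48 FPKM with D-serine and at 0.918, 1.13 and 1.64 FPKM with vehicle. Among the D-serine libraries, replicate 1 was the highest for Hist1h1c, Hist3h2a, Hist1h4i and Cdk1. Replicate 2 was the lowest for these histone genes and replicate 3 for Cdk1. The S phase list summed to 208, 117 and 127 FPKM with D-serine, lowest in replicate 2. The mitosis list summed to 261, 92.8 and 74.8 FPKM, lowest in replicate 3.

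**Figure D4:**
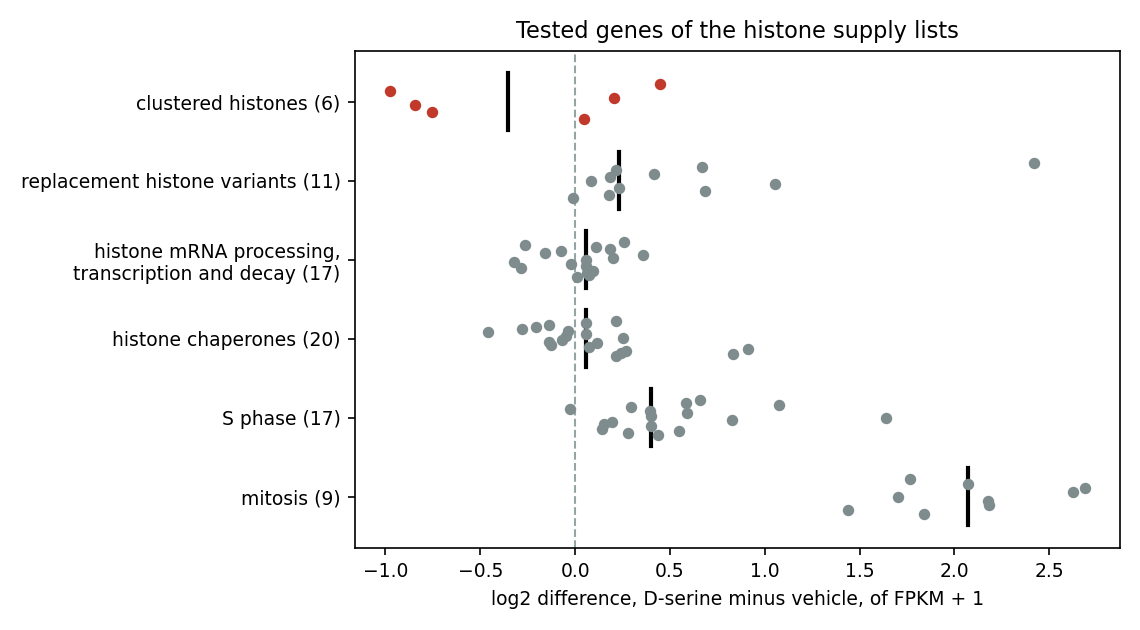
log2 difference of FPKM + 1, D-serine minus vehicle, for each tested gene of the clustered histones and of 5 lists around them, with 1 point per gene, the number of genes in brackets and a black line at the median. The clustered histones lie between -0.98 and 0.45, the mitosis genes all lie to the right of 0, and processing genes and chaperones lie around 0.

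Other cell types were read from their markers. The 5 markers of T and B cells summed to at most 0.34 FPKM in any library, with Cd3e and Ms4a1 listed at 0 in all 6. The 4 leukocyte markers summed to 2.49, 2.55 and 2.65 FPKM with D-serine and to 1.18, 0.548 and 1.55 FPKM with vehicle. Endothelial markers summed to 4.99, 6.77 and 8.29 FPKM with D-serine and 5.39, 3.17 and 6.60 FPKM with vehicle. Red cell genes summed to 6.50 to 13.3 FPKM with D-serine and 3.28 to 150 FPKM with vehicle, the highest in vehicle replicate 1. These sums are a weak reading of red cells. Hbb-bs was at 26.75 FPKM in vehicle replicate 1 and at most 0.00804 FPKM in any other library. Hba-a1 ran from 2.955 to 120.3 FPKM, while Hba-a2 stayed between 0.0537 and 0.05465 FPKM. None of the 8 kidney markers was at 0. Aqp2, the water channel of the collecting duct, was at 256, 275 and 187 FPKM with D-serine and at 110, 161 and 143 FPKM with vehicle, without overlap (log2 difference 0.79 ± 0.19, limma adjusted p = 0.078). The groups overlapped for the other 7, among them Lrp2 of the proximal tubule at -0.53 ± 0.24 and Umod of the thick ascending limb at -0.45 ± 0.21. Of the 4 leukocyte markers, only Cd68 reached a mean of 1 FPKM and was tested. Cd68 and Ptprc did not overlap between groups and lay higher with D-serine, and Adgre1 and Itgam overlapped. Of all tested genes, 16.5% lay higher with D-serine without overlap. That share does not cover genes as low as Ptprc, which ran from 0.290 to 0.809 FPKM. The part of these markers and of Aqp2 in the histone values was not tested.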

How the data were processed

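The authors deposited 1 table of FPKM per sample. TopHat2 2.0.13, Bowtie2 2.2.3, SAMtools 0.1.19, Cufflinks 2.2.1 and mm10 are named, per the submitters' processing notes. Per the labels' protocols, libraries came from a TruSeq stranded mRNA kit. Neither annotation nor strand setting is stated in the sources at hand.

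limma 3.58.1 (R 4.3.3, eBayes with trend) was run on log2(FPKM + 1) for all 11737 genes averaging 1 FPKM or more, D-serine against vehicle, two-sided, with Benjamini-Hochberg adjustment at 0.05. The pseudocount understates changes of low genes. The fit was tested on simulated data. Relative depth came from genes under 1 FPKM at equal fragments in 2 libraries, and totals from 101 genes with 1 transcript of 3000 to 10000 bases, a rough estimate. Positions and transcripts are from GENCODE M21 (68 of 68 members matched by symbol), and gene ends from RefSeq (67 of 68 matched).

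Of 6 tested members all are given singly. From each list around them the 3 genes with the smallest p and any called gene are named, except for marker lists. Alternatives changed the pseudocount, minimum, scaling, weights, trend, block and gene set, or left out 1 library. Members and lists were chosen with earlier results of these data known, so no list is independent evidence.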

Additional observations from a re-analysis of the deposited data

How the results depend on the processing

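Under 16 alternatives for each tested gene, Hist1h1c and Hist3h2a stayed below 0 and Hist1h4h above 0, and the same held for Hist1h4i (below) and Hist2h2be (above) in their 15. Hist1h2bc was -0.035 without vehicle replicate 1 and up to 0.096 without another library. The count of called members, 0 as reported, was 1 with a pseudocount of 0.1 or 0.01, with weighted libraries, with small RNA and Gm genes left out and with no minimum. In the first 4 it was Hist1h4i, and with no minimum it was Hist1h1e, whose values were 0 or 1 step. Without 1 library it was 0 in each case. The median of the tested members was 0.010 with no minimum (35 genes). Without 1 library it ran from -0.402 to -0.217 where 6 genes were tested. It was -0.035 without vehicle replicate 1, where 7 genes were tested and Hist1h2bc was the middle value. The count of called genes, 9 as reported, was 171 and 221 with pseudocounts of 0.1 and 0.01, 132 with a minimum of 5 FPKM, 269 with weighted libraries, 342 without small RNA and Gm genes, and 2 (without vehicle replicate 3) to 608 (without D-serine replicate 3) without 1 library. Cenpa, Ube2c and Birc5 passed in those settings with more calls. The causes were not tested.

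The replicate numbers did not pair the samples: deviations of same-numbered samples from their group means correlated at -0.07, 0.00 and 0.07. With the replicate block, 2 genes and 0 members were called. Depth limits Hist1h4i and all 62 low members most.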
